A study of Mus musculus with 3 samples.

Results

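The circadian clock genes examined here were 10 transcripts, Clock, Npas2, Per1, Per2, Per3, Cry1, Nr1d1, Nr1d2, Dbp and Tef, found by their symbols in the platform annotation among the 19057 genes named on the array. A gene was measured when at least 1 of its probes had a detection p-value under 0.01 on at least 1 array, and 9 of the 10 clock genes were among the 10603 genes measured, Cry1 being the exception. Expression in visceral (perigonadal) white adipose tissue of C57BL/6JRj mice was read on 3 Illumina mouse bead arrays, 1 for each group, from RNA that was pooled from 5 mice of a group. HFD-Rapa mice were fed a high-fat diet and received rapamycin, an inhibitor of the mTOR kinase, once a week for 22 weeks. HFD-Ve mice were given the same diet and injections of the drug's vehicle over the same weeks. The lean mice, called chow here, were fed regular chow according to the methods and are titled as a low-fat diet vehicle group in the labels. The labels give all mice an age of 28 weeks, which is less than the feeding and injection times in the methods add up to. Male and female mice entered the study, and neither the sex of the pooled mice nor the hour at which tissue was taken is given in the sources used here. With 1 pooled array per group there is no replicate, so that no test was made and every difference below is a difference between arrays.

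The detected share of the 45281 probes was 39.7% for HFD-Rapa, 38.8% for HFD-Ve and 37.4% for chow, and the median raw signal was 102.5, 106.9 and 92.7 in the same order. Levels are given as log2 of the background-corrected, quantile-normalised signal, and a difference as the first group's log2 level minus that of the second. Where a gene had several detected probes the brightest stood for it. Over the 3941 genes with several detected probes, probes of 1 gene differed in these values with an SD of 0.21 on the log2 scale between HFD-Rapa and HFD-Ve, of 0.32 between HFD-Ve and chow and of 0.38 between HFD-Rapa and chow. These probe SDs were the only error that the arrays allowed and they hold no variation between mice. The adipocyte marker Adipoq, which encodes adiponectin, had log2 levels of 13.84 in HFD-Rapa, 14.34 in HFD-Ve and 14.55 in chow tissue, and 9 of 10 adipocyte markers were measured (Cfd has no probe named here), as the tissue label states.

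The clock is a transcriptional feedback loop that runs in nearly every cell, fat cells included. CLOCK, or its relative NPAS2, pairs with BMAL1 (gene Arntl) and activates genes that carry E-boxes, among them the Per and Cry genes, whose proteins return to repress that pair. The same pair activates Nr1d1 and Nr1d2, encoding the nuclear receptors REV-ERB alpha and REV-ERB beta that repress Arntl, and Dbp, which with Tef belongs to the PAR bZIP family that activates genes through D-boxes.

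Nr1d1 was the clock gene that differed most between arrays. Its transcript was 1.97-fold lower in HFD-Rapa tissue than in HFD-Ve tissue, 2.49-fold lower in HFD-Ve than in chow tissue and 4.91-fold lower in HFD-Rapa tissue than in chow tissue. Per3 followed the same order at a low signal, and Per1 at a smaller size. Nr1d2 and Per2 had their highest level on the HFD-Rapa array. Clock, Npas2, Dbp and Tef all had their highest level in chow tissue, and each differed by less than 1.3-fold between HFD-Rapa and HFD-Ve.

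The promoters of these genes, the stretch just before the annotated transcription start, were searched for clock motifs. The sequences of the clock genes that differed most, Nr1d1, Per3 and Per1, are shown. With them are those of Tef and of Nr1d2, the paralogue of Nr1d1 that ran the other way against chow. Each is the 250 bases before the start in RefSeq (GRCm38.p6), read 5′ to 3′ on the gene's strand, with motif matches in capitals. Nr1d1 lies at chr11:98775378-98775627 on the minus strand, Per3 at chr4:151044666-151044915 on the minus strand and Per1 (its first annotated start) at chr11:69098699-69098948 on the plus strand. Nr1d2 lies at chr14:18239107-18239356 on the minus strand and Tef (its first annotated start) at chr15:81802423-81802672 on the plus strand.
Nr1d1: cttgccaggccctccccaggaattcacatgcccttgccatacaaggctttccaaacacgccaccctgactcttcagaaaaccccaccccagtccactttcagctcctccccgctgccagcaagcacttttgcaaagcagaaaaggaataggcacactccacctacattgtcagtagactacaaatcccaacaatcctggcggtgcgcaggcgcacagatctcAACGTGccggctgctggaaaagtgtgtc
Per3: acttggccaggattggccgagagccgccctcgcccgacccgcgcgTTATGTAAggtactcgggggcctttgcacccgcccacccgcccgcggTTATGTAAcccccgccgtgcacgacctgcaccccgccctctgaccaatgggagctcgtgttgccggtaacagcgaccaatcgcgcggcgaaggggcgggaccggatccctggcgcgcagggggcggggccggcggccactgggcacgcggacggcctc
Per1: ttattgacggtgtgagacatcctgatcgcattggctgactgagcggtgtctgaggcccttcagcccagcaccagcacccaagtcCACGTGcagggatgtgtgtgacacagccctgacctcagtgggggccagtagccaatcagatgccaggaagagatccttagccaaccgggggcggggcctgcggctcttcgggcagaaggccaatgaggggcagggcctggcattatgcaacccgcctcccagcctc
Nr1d2: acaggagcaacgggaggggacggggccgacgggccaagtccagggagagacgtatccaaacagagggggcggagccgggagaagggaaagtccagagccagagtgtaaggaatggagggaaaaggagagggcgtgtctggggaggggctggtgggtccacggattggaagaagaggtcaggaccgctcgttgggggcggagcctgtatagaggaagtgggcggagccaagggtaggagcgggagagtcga
Tef: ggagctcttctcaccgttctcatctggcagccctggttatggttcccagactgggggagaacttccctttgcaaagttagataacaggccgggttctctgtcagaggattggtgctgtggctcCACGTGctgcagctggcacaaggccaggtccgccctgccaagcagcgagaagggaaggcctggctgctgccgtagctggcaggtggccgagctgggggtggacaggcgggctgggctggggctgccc

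Windows from 250 bases before to 50 bases after the start were searched on both strands for the E-box CACGTG, its variant the E'-box CACGTT (read as AACGTG on the other strand), the D-box TTANGTAA, the RORE core TAGGTCA, to which REV-ERB and ROR receptors bind, and the CRE TGACGTCA. The table of promoters held 13 windows of 9 clock genes, and Per2 had no entry. In Nr1d1 the capitals mark an E'-box at position -28 from the start, and in Per3 a pair of D-boxes at positions -205 and -158. Per1 held an E-box at -166 of its first start and no searched motif at its second start. Tef held an E-box at -127 of its first start and another at -138 of its second. Nr1d2 held none of these motifs, and so did Clock (at 3 starts), Npas2 and Dbp. Cry1, the clock gene that the arrays did not detect, held both an E-box at -60 and an E'-box at -79. Among all 32851 windows of the table an E-box stood in 7.15%, an E'-box in 4.68%, a D-box in 2.32%, a RORE core in 2.61% and a CRE in 1.79%. An E-box stood in 4 of the 13 windows of the clock genes, both starts of Tef among them. By gene, 4 of the 9 held an E-box or an E'-box. The shares above are by window and for 1 motif each, and no share by gene for either motif was made beside this count. A match is a run of letters and not a shown binding site, and a missing match says only that these letters are not in the window. The measured genes with a match, of differing motifs, were lower in HFD-Rapa than in chow tissue. They were so by 4.91-fold (Nr1d1), at least 2.51-fold under the reported processing (Per3), 1.71-fold (Per1) and 1.45-fold (Tef). Of those with none, Nr1d2 was 1.48-fold higher, and Npas2 (1.46-fold), Clock (1.34-fold) and Dbp (1.32-fold) were lower. Whether a match goes with a difference was not tested.

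**Figure D1:**
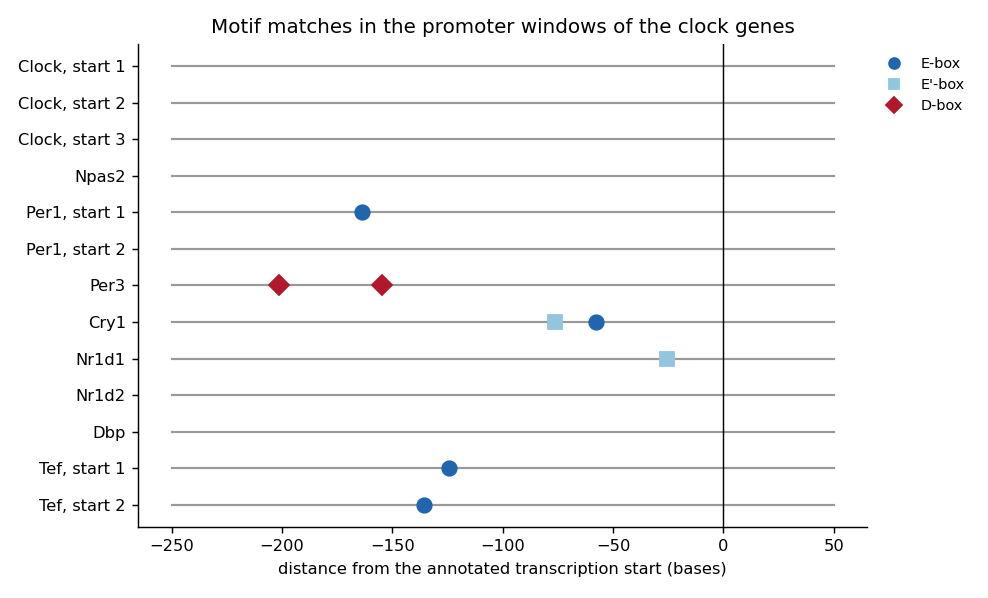
Positions of the E-box, E'-box and D-box matches in the promoter windows of the clock genes, with the distance from the annotated start in bases on the horizontal axis and 1 line for each of the 13 windows. The E'-box of Nr1d1 lies at -28, the D-boxes of Per3 at -205 and -158 and the E-box of Per1 at -166.

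Clock and Npas2 encode the alternative partners of BMAL1. The raw signal of Clock was 1387.7 in HFD-Rapa, 1870.8 in HFD-Ve and 1691.4 in chow tissue, and its log2 level was 10.36, 10.67 and 10.79 in the same order. Clock was thus lowest in HFD-Rapa tissue, by 0.31 on the log2 scale against HFD-Ve (1.24-fold) and by 0.43 against chow (1.34-fold), and the 0.12 between HFD-Ve and chow lay within the probe SD of 0.32. A second, dim Clock probe was detected on the chow array only, at a log2 level of 6.07, and gives no difference between the high-fat groups. Against chow it read -0.83 in HFD-Ve and -0.81 in HFD-Rapa tissue, where it was not detected, larger than on the first probe. With the mean of kept probes Clock differed from chow by -0.48 in HFD-Ve and by -0.62 in HFD-Rapa tissue. Npas2 was dim, with raw signals of 137.0 in HFD-Rapa, 143.5 in HFD-Ve and 146.4 in chow tissue and log2 levels of 5.88, 5.84 and 6.43. It was the same in both high-fat groups to within 0.04 and lay 0.59 lower in HFD-Ve than in chow tissue (1.5-fold), just past the threshold of 1.5-fold that is used for counts. That step ran over -0.59 to -0.27 in 9 other ways of processing and stayed past 1.5-fold in 4 of them. These 4 were changes of detection filter and of probe choice, which cannot alter a gene with 1 probe detected on every array. With each change of background correction, normalisation or values used, the step fell short of 1.5-fold, at -0.53 to -0.27. Their partner Arntl had log2 levels of 8.42 in HFD-Rapa, 8.56 in HFD-Ve and 8.41 in chow tissue, and all 3 of its differences were at most 1.11-fold.

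The Per genes encode the repressors of the loop, and they did not share 1 pattern. Per1 had raw signals of 309.9 in HFD-Rapa, 393.8 in HFD-Ve and 432.8 in chow tissue. Its log2 levels were 7.87, 8.14 and 8.64, so that it was 1.71-fold lower in HFD-Rapa tissue than in chow tissue, 1.41-fold lower in HFD-Ve than in chow tissue and 1.21-fold lower in HFD-Rapa tissue than in HFD-Ve tissue. Its second detected probe gave the same directions, with -0.65, -0.55 and -0.10 against -0.77, -0.50 and -0.27 of the first. Over the 9 other ways of processing, Per1 stayed past 1.5-fold lower in HFD-Rapa tissue than in chow tissue in 9, at -0.77 to -0.62.

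Per2 had its lowest level in HFD-Ve tissue, with raw signals of 483.4 in HFD-Rapa, 413.0 in HFD-Ve and 426.7 in chow tissue. Its log2 levels were 8.69, 8.23 and 8.62. It was 1.38-fold higher in HFD-Rapa tissue than in HFD-Ve tissue and 1.31-fold lower in HFD-Ve than in chow tissue, while HFD-Rapa and chow tissue lay 0.07 apart, which is within the probe SD. The 2 detected probes of Per2 agreed on this, at 0.46 and 0.43 for HFD-Rapa against HFD-Ve and at -0.39 and -0.42 for HFD-Ve against chow. The rapamycin step, 0.32 to 0.48 over the 9 other ways of processing, did not reach 1.5-fold in any of them.

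Per3 was close to the limit of detection. Its raw signal was 116.4 in HFD-Rapa tissue, where it was not detected (p-value of 0.012), 151.2 in HFD-Ve and 155.2 in chow tissue, where it was. Its log2 levels were 5.25, 6.00 and 6.59. Set against the lowest detected level of the HFD-Rapa array, 5.26, Per3 was at least 1.67-fold lower in HFD-Rapa tissue than in HFD-Ve tissue and at least 2.51-fold lower in HFD-Rapa tissue than in chow tissue. It was 1.5-fold lower in HFD-Ve than in chow tissue. Being dim, Per3 moved with the background correction. Over the 8 other ways of processing that kept it, its difference ran over -0.83 to -0.29 between HFD-Rapa and HFD-Ve (5 past 1.5-fold), over -0.59 to -0.29 between HFD-Ve and chow (3 past) and over -1.34 to -0.58 between HFD-Rapa and chow (7 past). The bounds above thus hold for the reported processing only. The 3 past between HFD-Ve and chow were changes of detection filter and of probe choice, which cannot alter Per3 with its 1 kept probe. The largest of the others was -0.52, with the 75th percentile shift. Cry1, another repressor, had raw signals of 86.8 in HFD-Rapa, 92.7 in HFD-Ve and 77.9 in chow tissue with detection p-values of 0.872, 0.766 and 0.876. It was not detected on any of the 3 arrays and no difference is given for it.

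**Figure D2:**
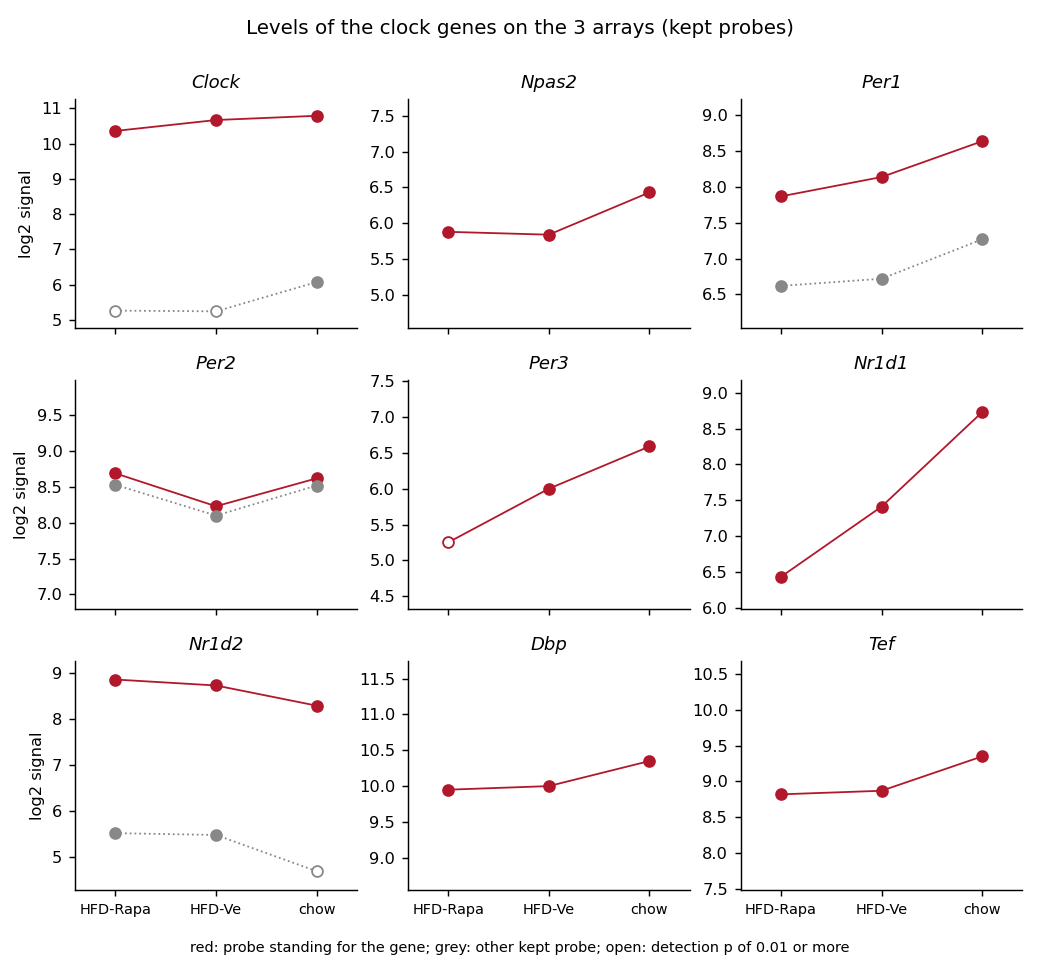
Log2 levels of the 9 measured clock genes on the 3 arrays, HFD-Rapa, HFD-Ve and chow from left to right, with the probe that stands for the gene in red, other kept probes in grey and open symbols where a probe was not detected. Nr1d1 has 6.43 in HFD-Rapa, 7.41 in HFD-Ve and 8.73 in chow tissue, and Nr1d2 has 8.86, 8.73 and 8.29.

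Nr1d1 and Nr1d2 encode the receptors that repress Arntl, and against chow the 2 paralogues ran in opposite directions. The raw signal of Nr1d1 was 164.4 in HFD-Rapa, 270.1 in HFD-Ve and 454.7 in chow tissue, and its probe was detected on each. Its log2 level was 6.43, 7.41 and 8.73. The difference of HFD-Rapa from HFD-Ve, -0.98, was 4.66 times the probe SD, and 2.24% of the measured genes (238) were as low or lower. For HFD-Ve against chow the difference of -1.31 was 4.13 times the probe SD, and 1.79% of genes (190) were as low. For HFD-Rapa against chow the difference of -2.30 was 6.10 times the probe SD, and 0.877% of genes (93) were as low. Over the 9 other ways of processing, each of these differences stayed past 1.5-fold in 9 of 9, at -1.10 to -0.59, -1.31 to -1.02 and -2.30 to -1.61. Changes of detection filter and of probe choice are among the 9 and cannot alter a gene with 1 probe detected on every array. With the other changes the differences ran over -1.10 to -0.59, -1.24 to -1.02 and -2.19 to -1.61, still past 1.5-fold. Nr1d1 has 1 probe on the array, so no second probe bears on these values.

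Nr1d2 had raw signals of 535.5 in HFD-Rapa, 550.0 in HFD-Ve and 353.3 in chow tissue, both high-fat arrays lying above the chow array. Its log2 levels were 8.86, 8.73 and 8.29. HFD-Rapa and HFD-Ve tissue differed by 0.13, within the probe SD of 0.21, and the sign of this difference turned with median scaling (-0.01). Nr1d2 was 1.36-fold higher in HFD-Ve than in chow tissue and 1.48-fold higher in HFD-Rapa tissue than in chow tissue. Its second kept probe had log2 levels of 5.51 in HFD-Rapa and 5.47 in HFD-Ve tissue and was not detected in chow tissue. Under some other ways of processing it passed 1.5-fold, in 2 of 9 for HFD-Ve against chow (0.36 to 0.66) and in 3 of 9 for HFD-Rapa against chow (0.47 to 0.70).

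Dbp and Tef encode activators at D-boxes, and Dbp is itself a direct target of the CLOCK and BMAL1 pair. Dbp had raw signals of 1058.8 in HFD-Rapa, 1198.4 in HFD-Ve and 1268.6 in chow tissue and log2 levels of 9.95 in HFD-Rapa and 10.35 in chow tissue, with a difference of -0.36 between HFD-Ve and chow. Tef had raw signals of 523.8 in HFD-Rapa, 597.2 in HFD-Ve and 662.6 in chow tissue and log2 levels of 8.82, 8.87 and 9.35. The high-fat groups differed by -0.04 in Dbp and by -0.05 in Tef, well inside the probe SD of 0.21. In HFD-Ve against chow tissue Dbp was 1.28-fold lower and Tef 1.4-fold lower, both beyond the probe SD and short of 1.5-fold. Hlf, which encodes the remaining PAR bZIP factor, was not detected.

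Counted together, 2 of the 9 measured clock genes (Nr1d1 and Per3) were at least 1.5-fold lower in HFD-Rapa tissue than in HFD-Ve tissue, where 7.56% of all measured genes were, and none was at least 1.5-fold higher, where 8.55% of all genes were. They went both ways, over -0.98 to 0.46, with 6 below 0 and 3 above it and a median of -0.05, against 0.02 over all genes. In HFD-Ve against chow tissue 3 of 9 (Nr1d1, Npas2 and Per3) were lower, against 11.7% of all genes, and none was higher, against 15.1% of all genes. The median was -0.49, against -0.05 over all genes, and 8 of 9 lay below 0, Nr1d2 being the exception. In HFD-Rapa against chow tissue 3 of 9 (Nr1d1, Per3 and Per1) were lower, against 19.5% of all genes, and none was higher, against 20.5% of all genes. The median was -0.54, against -0.04 over all genes, and 7 of 9 lay below 0. With so few genes a count of 2 or 3 is not set apart from these shares, and the 3 comparisons share arrays, the HFD-Ve array entering the first pair, the chow array the last pair and the HFD-Rapa array the first and the last. The difference was larger than the probe SD for 5 of the 9 genes between HFD-Rapa and HFD-Ve, for 8 between HFD-Ve and chow and for 8 between HFD-Rapa and chow. The share of all genes past the probe SD was not counted, so these counts are not read as particular to the clock genes. From the 5th to the 95th percentile, all genes ran over -0.71 to 0.73, -0.89 to 1.22 and -1.27 to 1.66 in the same order, wider than the SD. A level below that of another array may come from fewer cells that hold the transcript or from less of it per cell, which cannot be told apart in whole tissue.

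**Figure D3:**
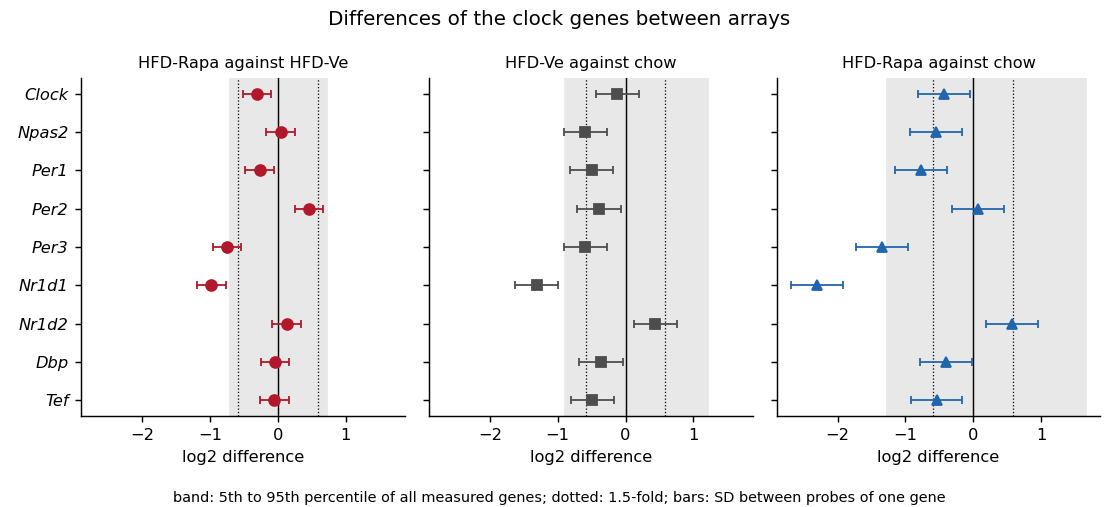
Log2 differences of the 9 measured clock genes in 3 panels, HFD-Rapa against HFD-Ve on the left, HFD-Ve against chow in the middle and HFD-Rapa against chow on the right, with the probe SD as error bars, the 5th to 95th percentile of all measured genes as a grey band and dotted lines at 1.5-fold. Nr1d1 is the lowest in each comparison (-0.98, -1.31 and -2.30), and Per2 (0.46) is the highest in the first.

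The order of the levels was chow, HFD-Ve, HFD-Rapa from high to low in 6 of the 9 genes (Clock, Per1, Per3, Nr1d1, Dbp and Tef), and the chow array was the highest in 7, Npas2 included. The share of all measured genes with these orders was not counted, so neither count is read as particular to the clock genes. For Dbp and Tef the 2 high-fat arrays are not ordered beyond the probe SD, nor are HFD-Ve and chow tissue for Clock, whose order turned with median scaling (0.08 for HFD-Ve against chow). With the mean of kept probes that Clock difference was -0.48, beyond the probe SD. The range between the highest and lowest array was 2.30 on the log2 scale for Nr1d1, 1.34 for Per3, 0.77 for Per1 and 0.40 to 0.59 for the other 6. Among the 9348 genes detected on all 3 arrays, the 5 whose pattern lay closest to that of Nr1d1, by the distance between the 3 centred log2 levels, were Angpt1 (0.005), Gng7 (0.066), 2610016A17Rik (0.075), Nrbp2 (0.095) and Negr1 (0.096). Angpt1, which encodes a ligand of the endothelial receptor TIE2, had log2 levels of 5.75 in HFD-Rapa, 6.73 in HFD-Ve and 8.04 in chow tissue. Each pattern is made of 3 values only, and nothing is read from this likeness.

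Other factors of the loop were few on these arrays, 5 of 11 being measured. Cry2, the second cryptochrome repressor, had log2 levels of 7.35 in HFD-Rapa, 8.20 in HFD-Ve and 8.57 in chow tissue, and was 1.80-fold lower in HFD-Rapa tissue than in HFD-Ve tissue (9 of 9 other ways of processing, -0.97 to -0.62). Bhlhe40, which encodes the repressor DEC1, had log2 levels of 9.66 in HFD-Rapa, 9.70 in HFD-Ve and 11.14 in chow tissue, a step of 2.72-fold between HFD-Ve and chow tissue with no step between the high-fat groups. Rora, an activator of Arntl, was 1.31-fold lower in HFD-Ve than in chow tissue and differed by -0.11 between HFD-Rapa and HFD-Ve. Ciart, a repressor of the CLOCK and BMAL1 pair, was not detected in HFD-Ve tissue, and its level there was at least 1.38-fold below that of chow tissue. Over 8 other ways of processing the Ciart difference between HFD-Ve and chow ran over -0.68 to -0.25, so that the bound holds for the reported processing only. In this list 1 of 5 was at least 1.5-fold lower and none higher in HFD-Rapa against HFD-Ve (7.56% and 8.55% of all genes), with a median of -0.11. In HFD-Ve against chow tissue 2 of 5 were lower (1 when Ciart is set at its bound) and none higher (11.7% and 15.1% of all genes), with a median of -0.39, and in HFD-Rapa against chow tissue 2 of 5 were lower and none higher (19.5% and 20.5% of all genes), with a median of -0.49. Arntl2, Rorb, Bhlhe41 and Hlf were not detected, and Nfil3 has no probe named here.

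Of the kinases and ubiquitin ligases that set the lifetime of PER and CRY proteins, 5 of 8 were measured. Csnk2a1, the catalytic alpha subunit of casein kinase 2, had log2 levels of 8.08 in HFD-Rapa, 6.96 in HFD-Ve and 6.93 in chow tissue, 2.16-fold higher in HFD-Rapa tissue than in HFD-Ve tissue. Its second detected probe did not show this, with 6.20, 6.22 and 6.07 and a difference of -0.02 between HFD-Rapa and HFD-Ve. Btrc, a ubiquitin ligase subunit that recognises PER proteins, was 1.74-fold lower in HFD-Rapa tissue than in chow tissue. Csnk1e, casein kinase 1 epsilon, was 1.51-fold lower there, past 1.5-fold in 3 of 9 other ways of processing. These 3 were changes of detection filter, which cannot alter the brightest probe of Csnk1e. With each other change the Csnk1e difference from chow fell short of 1.5-fold. The 2 detected probes of Csnk1e disagreed in sign for HFD-Rapa against HFD-Ve (-0.21 and 0.50). At 1.5-fold, 1 was higher and none lower in HFD-Rapa against HFD-Ve (8.55% and 7.56% of all genes). In HFD-Ve against chow tissue none passed either way (15.1% higher and 11.7% lower of all genes), and in HFD-Rapa against chow tissue 1 was higher and 2 lower (20.5% and 19.5% of all genes), with medians of -0.21, -0.15 and -0.30, the second of which turned to 0.04 with median scaling. Fbxl21 and Fbxw11 were not detected.

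Of the genes that the clock drives in many tissues, 5 of 8 were measured. Usp2, a deubiquitinase with a strong daily rhythm, had log2 levels of 7.07 in HFD-Rapa, 7.77 in HFD-Ve and 8.18 in chow tissue, 1.63-fold lower in HFD-Rapa tissue than in HFD-Ve tissue (past 1.5-fold in 6 of 9 other ways of processing) and 2.15-fold lower in HFD-Rapa tissue than in chow tissue. Noct, which encodes the rhythmic protein nocturnin, ran the other way against chow, with log2 levels of 10.31 in HFD-Rapa, 10.49 in HFD-Ve and 9.34 in chow tissue. It was 2.22-fold higher in HFD-Ve than in chow tissue, and its second detected probe gave 2.09 on the log2 scale where the first gave 1.15. Nampt, Alas1 and Klf10 differed by at most 1.23-fold in any comparison. At 1.5-fold, none was higher and 1 lower in HFD-Rapa against HFD-Ve (8.55% and 7.56% of all genes). In HFD-Ve against chow tissue 1 was higher and none lower (15.1% and 11.7% of all genes), and in HFD-Rapa against chow tissue 1 was higher and 1 lower (20.5% and 19.5% of all genes), with medians of -0.17, 0.23 and 0.07. Wee1 and Ppara were not detected and Por has no probe named here.

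**Figure D4:**
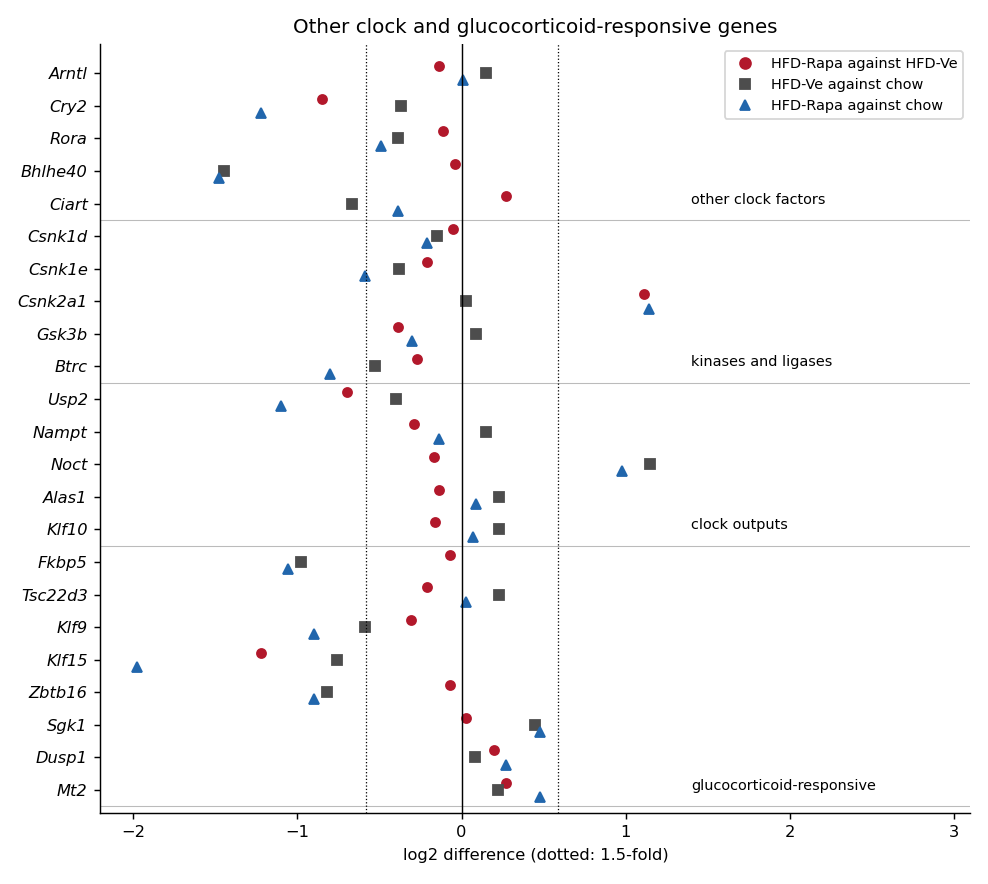
Log2 differences (horizontal axis) of the measured genes of the other clock lists and of the glucocorticoid-responsive list, 1 row for each gene, with circles for HFD-Rapa against HFD-Ve, squares for HFD-Ve against chow, triangles for HFD-Rapa against chow and dotted lines at 1.5-fold. Cry2 and Usp2 are lower in HFD-Rapa tissue than in HFD-Ve tissue (-0.85 and -0.70), and Bhlhe40 is lower in HFD-Ve than in chow tissue (-1.45).

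Glucocorticoids reset peripheral clocks and act directly on Per1, so their responsive genes are given beside it. All 8 of that list were measured, and 4 were at least 1.5-fold lower in HFD-Ve than in chow tissue (11.7% of all genes) and none higher (15.1% of all genes). Of these 4, Fkbp5 stayed past 1.5-fold in 9 of 9 other ways of processing, Klf9 and Zbtb16 in 6 of 9 each and Klf15 in 4 of 8. Fkbp5, a chaperone that the glucocorticoid receptor induces, had log2 levels of 7.99 in HFD-Rapa, 8.06 in HFD-Ve and 9.04 in chow tissue. Klf9 had 10.79 in HFD-Rapa, 11.09 in HFD-Ve and 11.69 in chow tissue, and Zbtb16 had 5.61, 5.69 and 6.51 in the same order, both of them transcription factors. Klf15, a transcription factor, was not detected in HFD-Rapa tissue and was at least 1.86-fold lower there than in HFD-Ve tissue, the only gene of the list past 1.5-fold in that comparison (7.56% of all genes), where none was higher. Over 8 other ways of processing its difference between HFD-Rapa and HFD-Ve ran over -1.31 to -0.46, past 1.5-fold in 6, so that the bound holds for the reported processing only. Tsc22d3, Sgk1, Dusp1 and Mt2 were no lower in HFD-Ve than in chow tissue, at 0.23, 0.45, 0.08 and 0.22. The list's median was -0.07 in HFD-Rapa against HFD-Ve, -0.26 in HFD-Ve against chow and -0.43 in HFD-Rapa against chow (4 lower and none higher, against 19.5% and 20.5% of all genes), and the last pair turned to 0.08 and 0.03 in 1 of 9 other ways of processing each. The part of glucocorticoid action in the level of Per1 was not tested.

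Markers of other cells moved over the same arrays. Macrophage markers (8 of 9 measured, Cd68 having no probe named here) had a median difference of 0.50 in HFD-Rapa against HFD-Ve and 1.42 in HFD-Ve against chow, with summed signals of 49999.9 in HFD-Rapa, 35214.6 in HFD-Ve and 12416.4 in chow tissue, and in HFD-Rapa tissue 8 of 8 lay at least 1.5-fold above chow tissue (20.5% of all genes). Lymphocyte markers (5 of 7 measured) summed to 1410.6 in HFD-Rapa, 732.4 in HFD-Ve and 543.1 in chow tissue, and in HFD-Rapa tissue 5 of 5 lay at least 1.5-fold above HFD-Ve tissue (8.55% of all genes). Adipocyte markers summed to 81274.2 in HFD-Rapa, 110966.6 in HFD-Ve and 113239.5 in chow tissue, and in HFD-Rapa against HFD-Ve 9 of 9 lay below 0 with a median of -0.55, 4 of them at least 1.5-fold lower (7.56% of all genes). In HFD-Ve against chow they went both ways, with a median of -0.03. There 3 of 9 were at least 1.5-fold lower (Retn, Plin1 and Pnpla2) and 1 higher (Lep), against 11.7% and 15.1% of all genes. Endothelial markers (6 of 7, Kdr not detected) summed to 1930.3 in HFD-Rapa, 3688.5 in HFD-Ve and 3830.3 in chow tissue, with 6 of 6 at least 1.5-fold lower in HFD-Rapa tissue than in HFD-Ve tissue (7.56% of all genes) and none past 1.5-fold in HFD-Ve against chow. Fibroblast and preadipocyte markers (6 of 6) summed to 39461.1 in HFD-Rapa, 37211.0 in HFD-Ve and 26163.8 in chow tissue. Dcn had the highest level of these on each array and so weighed most in their sum. Between HFD-Rapa and HFD-Ve they split, with Dpt (-0.67) and Pdgfra (-0.45) below 0 and 4 above it, up to 0.49 (Col3a1). Against chow, 4 of 6 passed 1.5-fold upward in HFD-Ve tissue (15.1% of all genes), whereas Dcn differed by -0.05. The measured clock genes summed to 4052.4 in HFD-Rapa, 4413.7 in HFD-Ve and 5439.6 in chow tissue. Clock and Dbp, the brightest of them, weigh most in this sum, and Per2 and Nr1d2 did not follow its order. The part of cell composition in the levels of the clock genes was not tested.

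**Figure D5:**
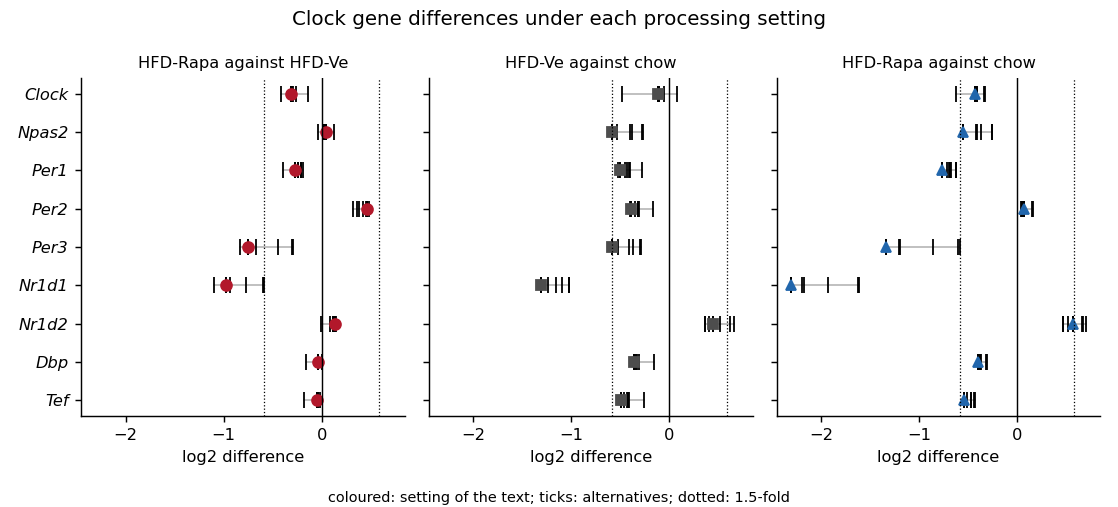
Log2 differences of the 9 measured clock genes under the reported processing (coloured symbols) and under each alternative (ticks), 1 panel for each comparison, with dotted lines at 1.5-fold. Nr1d1 stays at or below -0.59 in HFD-Rapa against HFD-Ve, whereas Per3 spreads over -0.83 to -0.29.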

How the data were processed

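RNA from visceral white adipose tissue, pooled from 5 mice per group per the methods, was hybridised to Illumina WG-6 bead arrays, 1 each for HFD-Rapa, HFD-Ve and chow. The authors deposited the raw signal intensity of 45281 probes, exported from GenomeStudio (submitters' processing notes), with a detection p-value beside each deposited signal. A second deposited table holds processed intensities whose normalization is not stated, used as an alternative.

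Background was estimated through the detection p-values and removed with an offset of 16 in limma 3.58.1 (R 4.3.3), followed by quantile normalisation and log2. A total of 18954 probes passed the filter, a detection p-value under 0.01 on 1 array or more, and each of 10603 genes was read from its brightest such probe. A gene not detected on 1 array was given as a bound from that array's lowest detected level. Gene names came from the platform annotation, with 34885 probes of 1 gene and 18 of several, left unnamed. All 10 clock symbols were found in the reference gene table. Counting used 1.5-fold. Precision is limited by the number of arrays, and 1 array per group allows no test. Tables and plots used Python 3.11.15, numpy 2.4.6, pandas 2.3.3 and matplotlib 3.10.9, and the counting was tested on simulated data.

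Named were all clock genes, the genes of the pathway lists past 1.5-fold in HFD-Rapa against HFD-Ve or HFD-Ve against chow, and the 5 genes most like the clock gene with the widest range. Other genes of those lists were named after their values were seen. The clock genes, lists and markers were chosen with earlier results of these data known. Alternatives changed the background correction, offset, normalisation, detection filter, choice of probe, values used and fold threshold.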

Additional observations from a re-analysis of the deposited data

How the results depend on the processing

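Of the differences of single clock genes under the alternatives, 228 were counted as close to the reported value and 12 as moved. None past 1.5-fold turned its sign. The word close is wide here. With no background correction Npas2 was counted as close at -0.28 in HFD-Ve against chow, where -0.59 was reported. It was also counted as close at -0.26 in HFD-Rapa against chow, where -0.55 was reported. The 228 hold values that could not change, since the detection filter and the choice of probe leave a gene with 1 kept probe unaltered. The same holds within the counts of alternatives given above for Cry2, Usp2, Fkbp5, Klf9, Zbtb16 and Klf15. The median of the clock genes kept its sign in 9 of 9 alternatives in each comparison, at -0.18 to -0.02 for HFD-Rapa against HFD-Ve, -0.49 to -0.26 for HFD-Ve against chow and -0.55 to -0.41 for HFD-Rapa against chow. The count of clock genes lower in HFD-Rapa tissue than in HFD-Ve tissue, 2 as reported, was 1 with no background correction, with an offset of 50, with the deposited processed values and with detection asked on all 3 arrays (which removes Per3), and 0 at 2-fold. The count lower in HFD-Ve than in chow tissue, 3 as reported, was 1 with no background correction, an offset of 50, the 75th percentile shift, median scaling, the deposited processed values and at 2-fold. The count higher, 0 as reported, was 1 in HFD-Ve against chow with median scaling and with the mean of kept probes, and 1 in HFD-Rapa against chow with these and with the 75th percentile shift. The causes were not tested.

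Over all genes, HFD-Rapa against HFD-Ve gave 907 higher and 802 lower as reported, 449 and 438 with no background correction and 453 and 436 with the deposited values. HFD-Ve against chow gave 1598 and 1241 as reported, 983 and 688 and then 970 and 681 with those settings, and 2306 and 697 with median scaling, which moved the median of all genes to 0.15 against -0.05 as reported. Median scaling gave 635 higher and 1130 lower in HFD-Rapa against HFD-Ve, and in HFD-Rapa against chow, where 2175 and 2072 were reported, no background correction gave 1467 and 1350 and the deposited values 1452 and 1336. No paired analysis was possible because each group has 1 array. Genes near background, Per3 and Npas2 among the clock genes, are limited by signal over background.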

Other observations

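Of 10 temperature-responsive genes 9 were measured (Dnaja1 was not detected), and they went both ways. Cirbp, which encodes a cold-inducible RNA-binding protein that affects clock transcripts, had log2 levels of 7.51 in HFD-Rapa, 7.70 in HFD-Ve and 8.38 in chow tissue, 1.61-fold lower in HFD-Ve than in chow tissue. Rbm3, which encodes another cold-inducible RNA-binding protein, had 5.17 in HFD-Rapa, 5.05 in HFD-Ve and 5.53 in chow tissue and was detected in chow tissue alone. Among the heat shock genes, Hsph1 had 10.32 in HFD-Rapa, 9.73 in HFD-Ve and 9.23 in chow tissue. Hsp90aa1 was 2.13-fold higher in HFD-Ve than in chow tissue and differed by 1.04-fold between the high-fat groups. Hspa1a was 1.84-fold higher in HFD-Rapa tissue than in HFD-Ve tissue and 1.55-fold lower in HFD-Ve than in chow tissue. The difference from chow ran over -0.63 to -0.40 and stayed past 1.5-fold in 4 of 9 other ways of processing. These 4 were changes of detection filter and of probe choice, which cannot alter Hspa1a with its 1 kept probe. The near-identical copy Hspa1b, detected in HFD-Rapa tissue alone, was at least 1.22-fold higher there than in HFD-Ve tissue under the reported processing. Hspb1 was 1.62-fold higher in HFD-Ve than in chow tissue. Counts past 1.5-fold were 3 higher and none lower in HFD-Rapa against HFD-Ve (2 higher with Hspa1b at its bound), where 8.55% and 7.56% of all genes were. They were 2 higher and 2 lower in HFD-Ve against chow (15.1% and 11.7% of all genes), and 3 higher and 1 lower in HFD-Rapa against chow (2 higher at the bound, against 20.5% and 19.5% of all genes), and the medians were 0.12, 0.08 and 0.25.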
